A study of Mus musculus with 6 samples.

Results

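Oxidative phosphorylation is carried out in the inner mitochondrial membrane. Complexes I and II pass electrons from NADH and succinate through coenzyme Q to complex III, cytochrome c carries them to complex IV, which reduces oxygen, and complex V, the ATP synthase, uses the proton gradient built by complexes I, III and IV. Most subunits are encoded in the nucleus and a few in the mitochondrial DNA. Osteoclasts are rich in mitochondria, and bone resorption consumes ATP for the proton pump of the ruffled border. The nuclear-encoded subunits were chosen on the array by gene name alone, as names that begin with Nduf, Sdh, Uqcr, Cyc1, Cycs, Cox4 to Cox8 or Atp5 followed by a subunit letter. The rule found 87 of the 37074 gene names, carried by 135 of the 56605 probes. Of these, 84 are subunits, and 3 (Atp5c1-ps, Atp5s and Atp5sl) are not and were counted apart. Ndufa4 and its relative Ndufa4l2 were placed with complex IV, where the Ndufa4 protein is known to sit, although their names point to complex I.

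The RNA came from osteoclasts grown out of mouse bone marrow, which received RANKL, the cytokine that drives osteoclast formation, for 5 days. All 6 mice carried both copies of Ano1, the gene of a calcium-activated chloride channel, flanked by loxP sites. The 3 controls carried nothing else (Ano1fl/fl), and 3 littermates also carried Ctsk-Cre (Ctsk-Cre;Ano1fl/fl), in which Cre recombinase is made where the cathepsin K gene is active, so that excision is limited to cells that have reached that stage. The methods give bone marrow of young adult mice for such cultures, and the labels give no age for these animals. Each mouse gave 1 Agilent array of a single dye, all on 1 slide and with 1 scan date.

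Between 33480 and 34951 of the 59305 transcript spots on an array were well above background, and no spot was saturated. Arrays of a group correlated at 0.994 to 0.997 and arrays of different groups at 0.944 to 0.950. The single Ano1 probe was not well above background on any of the 6 arrays, so the deletion could not be checked and the groups are those of the labels. An exchange of the labels would turn the sign of every difference given here. On the arrays that the labels give as Ctsk-Cre;Ano1fl/fl, each of the 9 osteoclast markers tested was higher, with a median log2 difference of 3.13. Their summed signal after quantile normalization, on the linear scale, ran from 494039 to 556838 against 143099 to 155618 in the controls. This direction is opposite to the one that the study describes for osteoclast markers by other assays. All 8 stromal markers were higher as well, with sums of 62418 to 103205 against 2852 to 3513. Of these, Lum cleared background on no control array and entered the test only through the Ctsk-Cre;Ano1fl/fl arrays, so the filter favoured a difference. All 6 proliferation markers were lower, with sums of 50020 to 64537 against 99471 to 110906. Of 8 neutrophil markers 1 was higher and 5 were lower, with sums of 202667 to 254695 against 307082 to 322928, and of 6 macrophage markers 1 was higher and 2 were lower, with sums of 334889 to 379015 against 311309 to 324437. These shifts run alongside every difference given here, and their part in it was not tested. In bulk RNA a larger share of one cell type and more RNA per cell cannot be told apart.

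With quantile normalization, subunit genes were higher on the Ctsk-Cre;Ano1fl/fl arrays more often than lower, by small amounts. In all, 81 of the 84 subunit genes could be tested, each by its brightest probe. At a limma adjusted p under 0.05, 33 of them (40.7%) were higher, where 23% of the 20650 genes tested were, and 5 (6.17%) were lower, where 28.5% of all genes were. The groups of arrays did not overlap for 60 subunit genes, or 74.1%, against 64% of all genes. The median log2 difference was 0.17 over the subunits and -0.06 over all genes. The direction was positive for 62 subunits and negative for 19. Only 3 subunits passed the test with a change above 2-fold upward, Ndufa4l2, Cox6a2 and Cox7a1, where 9.9% of all genes did, and Ndufa4l2 was under 2-fold with normexp background correction. The p-values measure the spread among these 6 mice, and the number of arrays limits the precision.

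Most subunit messages are abundant, so the counts were also set against bright genes. Of 76 subunits with a mean log2 signal over 12, 30 were higher and 4 lower, and their median was 0.15. Among the 5033 genes of any kind above the same level, 23.5% were higher and 22.3% lower, with a median of 0.00. Arrays can also be scaled to their 75th percentile instead of by quantiles. The median of all genes then stood at -0.12, and 16 subunits (19.8%) were higher and 6 lower, where 20% of all genes were higher, so the share of higher subunits was then that of all genes. Of the called subunits 72.7% were higher in place of 86.8%, and of all called genes 38.5% in place of 44.6%. Relative to the median of all genes, the subunit median was 0.23 with quantile normalization and 0.18 with 75th percentile scaling. The number of higher subunits was 21 without Ano1fl/fl replicate 2 and also without Ano1fl/fl replicate 3, beside 19.41% and 19.32% of all genes. It was between 23 and 29 without any other array, beside 19.97% to 20.69% of all genes. The number of lower subunits was 1 to 3 without any one of the 6 arrays, beside 23.09% to 25.16% of all genes.

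**Figure D1:**
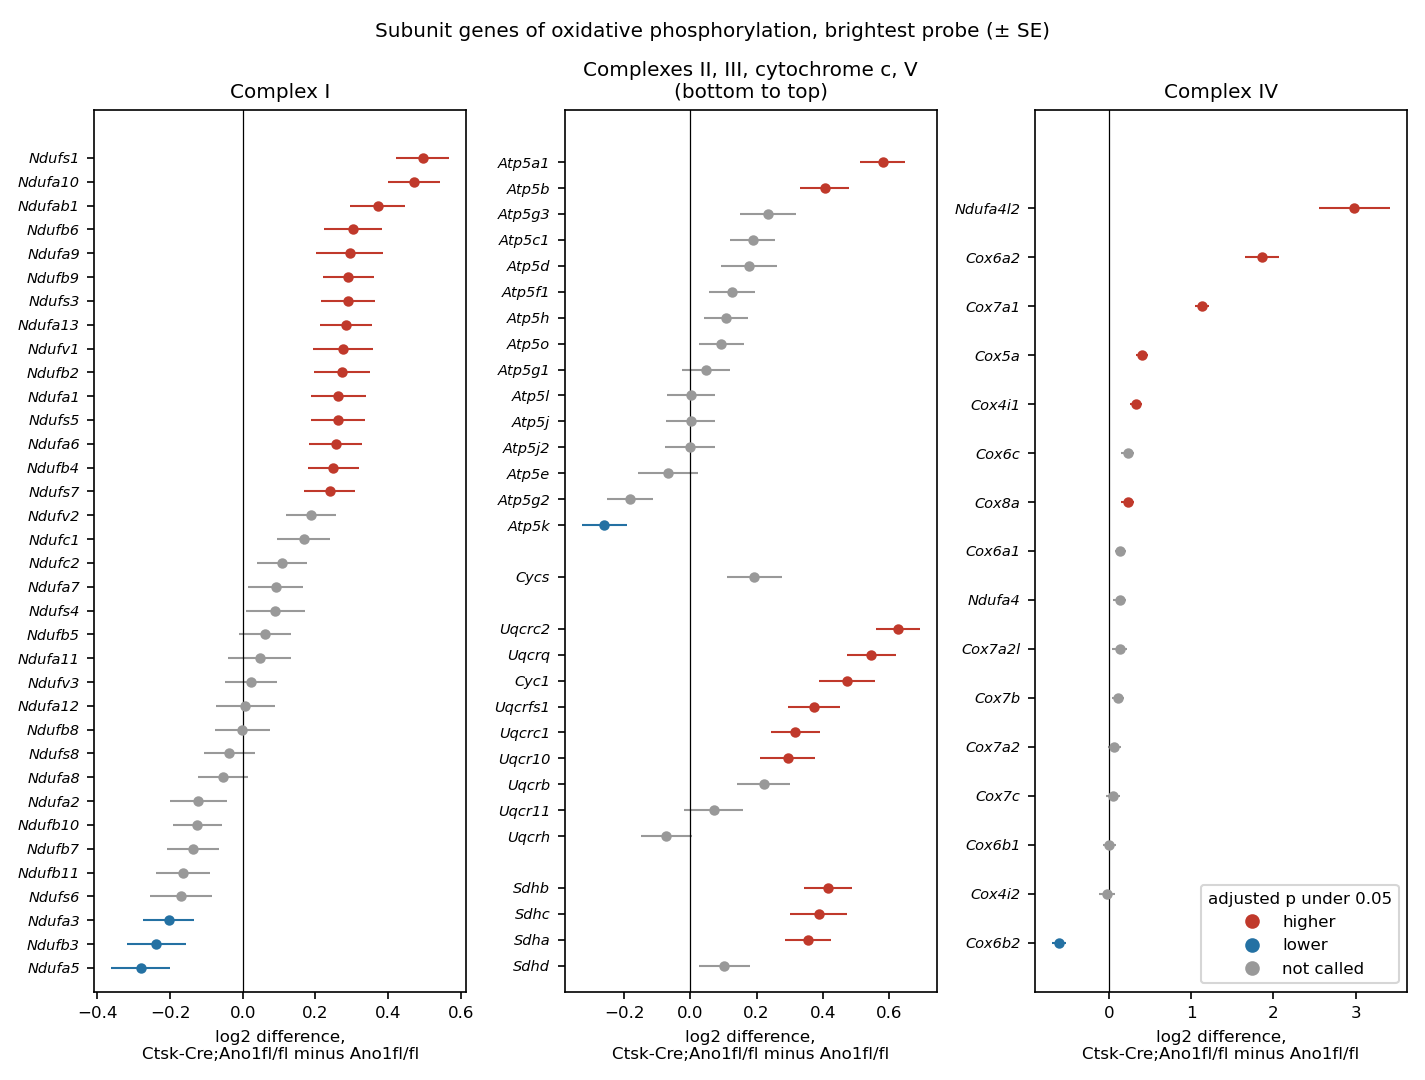
Log2 difference (Ctsk-Cre;Ano1fl/fl minus Ano1fl/fl) of tested subunit genes, by the brightest probe, with its limma standard error as a bar; red marks higher, blue lower and grey not called at an adjusted p under 0.05. The calls of complexes II and III are all upward, and the axis of complex IV is wider because 3 of its genes rose by more than 1 log2 unit.

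Complexes II and III had the highest medians. The complex medians were 0.14 for complex I (36 genes tested), 0.37 for complex II (4 genes), 0.32 for complex III (9 genes), 0.13 for complex IV (16 genes) and 0.09 for complex V (15 genes). With 75th percentile scaling they were 0.04, 0.27, 0.22, 0.06 and -0.02 in the same order, so complexes I and IV stood below 0.1 and complex V turned negative. On single arrays, the median deviation of complex II from the control mean was 0.05, -0.03 and -0.02 in the controls and 0.39, 0.42 and 0.28 on the Ctsk-Cre;Ano1fl/fl arrays. For complex III the same values were 0.04, 0.00 and -0.06 against 0.32, 0.39 and 0.30. For complex V they were 0.02, 0.02 and -0.02 against 0.08, 0.12 and 0.06, a smaller separation. In each of the complexes, every Ctsk-Cre;Ano1fl/fl array lay above every control array by this measure. The differences between complexes were not tested, since their genes are not replicates.

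**Figure D2:**
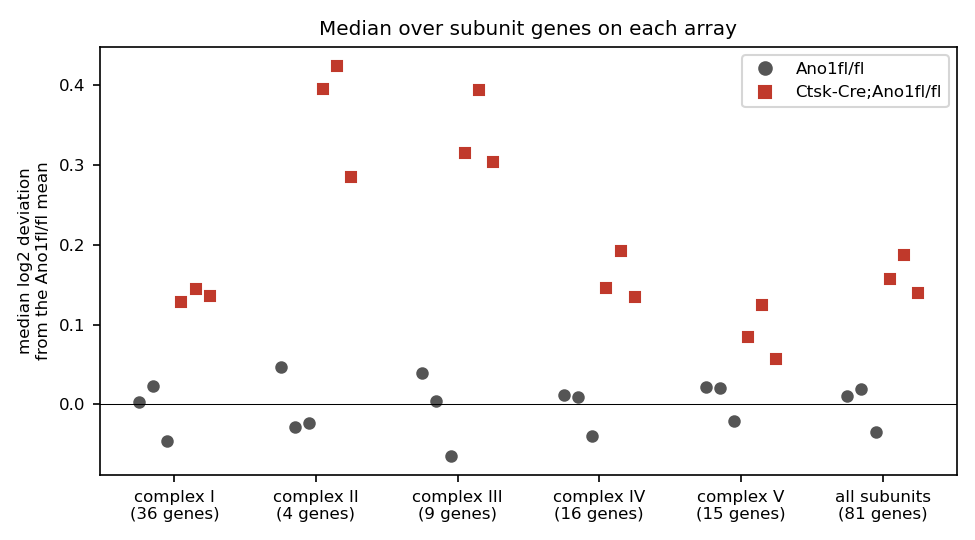
Median over the tested subunit genes of each complex of the log2 deviation from the gene's own Ano1fl/fl mean, 1 point per array, circles for Ano1fl/fl and squares for Ctsk-Cre;Ano1fl/fl. The groups separate in every complex, for example at 0.28 to 0.42 against -0.03 to 0.05 in complex II and at 0.06 to 0.12 against -0.02 to 0.02 in complex V.

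Complex I takes electrons from NADH. Of its 36 genes, 16 (44.4%) were higher and 3 (8.33%) lower, beside 23% and 28.5% of all genes, and 17 were not called. The log2 differences ran from -0.28 to 0.50. With 75th percentile scaling 4 (11.1%) were higher and 3 lower, beside 20% and 31.86% of all genes. Ndufs1, the largest of the iron-sulfur subunits (probe at chr1:63190360-63190419, mm9), read 13.50, 13.40 and 13.52 on the log2 scale in the controls and 13.99, 13.96 and 13.96 on the Ctsk-Cre;Ano1fl/fl arrays. The groups did not overlap and the difference was 0.50 ± 0.07 (SE; limma adjusted p = 0.00207). Ndufa10, an accessory subunit of the membrane arm, rose from 13.74 ± 0.04 to 14.21 ± 0.05 (SD, n = 3), a difference of 0.47 ± 0.07 with a limma adjusted p of 0.0024. Ndufab1, the mitochondrial acyl carrier protein that also serves fatty acid synthesis, rose from 14.54 ± 0.07 to 14.92 ± 0.04 (limma adjusted p = 0.0074). With the mean of all tested probes of a gene in place of the brightest, Ndufs1 turned to -0.22 (limma adjusted p = 0.0649), and Ndufa10 and Ndufab1 missed the threshold at 0.0999 and 0.0832. Among the other genes called higher, the core subunits Ndufs3, Ndufs7 and Ndufv1 differed by 0.29, 0.24 and 0.28, and the accessory subunits Ndufb6 and Ndufa9 by 0.30 and 0.29. The 17 genes not called lay between -0.17 (Ndufs6) and 0.19 (Ndufv2). A dim second probe of Ndufv2 was lower, at -0.90 (limma adjusted p = 0.00655).

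The 3 complex I genes that were lower are all small accessory subunits. Ndufa5 read 15.02, 15.18 and 15.09 in the controls and 14.75, 14.87 and 14.82 on the Ctsk-Cre;Ano1fl/fl arrays, a difference of -0.28 ± 0.08 (limma adjusted p = 0.026). Its second tested probe gave -0.30. Ndufb3 differed by -0.24 ± 0.08 (limma adjusted p = 0.048) and Ndufa3 by -0.20 ± 0.07 (limma adjusted p = 0.0489, and 0.406 as the mean of its probes). These calls depended on single arrays. Ndufa3 and Ndufb3 missed the threshold without any one of the 6 arrays, at adjusted p of 0.0531 to 0.136, and Ndufa5 missed it without Ano1fl/fl replicate 2 or 3 or Ctsk-Cre;Ano1fl/fl replicate 1 or 3, at 0.0627 to 0.0865. The log2 difference stayed negative for these genes in each of those fits.

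Complex II, succinate dehydrogenase, is the enzyme shared with the citric acid cycle. Sdhb, its iron-sulfur subunit, read 15.18, 15.24 and 15.18 in the controls and 15.60, 15.67 and 15.57 on the Ctsk-Cre;Ano1fl/fl arrays. The difference was 0.42 ± 0.07 (limma adjusted p = 0.00377). Sdhc, a membrane anchor, rose by 0.39 ± 0.09 (limma adjusted p = 0.0101) and Sdha, the flavoprotein that oxidizes succinate, by 0.36 ± 0.07 (limma adjusted p = 0.00655). The other anchor, Sdhd, overlapped between the groups at 14.86 ± 0.07 against 14.97 ± 0.06 (SD, n = 3; limma adjusted p = 0.306). These 3 calls among 4 genes (75%) stand beside 23% of all genes. The 3 calls also held with 75th percentile scaling, where 20% of all genes were higher. With the mean of all tested probes of a gene in place of the brightest, Sdha turned to -0.01 (limma adjusted p = 0.901), since 1 dimmer probe fell by 1.06 on the log2 scale.

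Complex III transfers electrons to cytochrome c. Of its 9 genes 6 (66.7%) were called higher, beside 23% of all genes, and only Uqcrh differed downward, without a call. With 75th percentile scaling 3 (33.3%) were higher, beside 20% of all genes. Uqcrc2, a core protein (probe at chr7:127802599-127802658, mm9), read 14.10, 14.11 and 14.09 in the controls and 14.75, 14.72 and 14.71 on the Ctsk-Cre;Ano1fl/fl arrays. The spread within each group was a small part of the difference of 0.63 ± 0.07 (limma adjusted p = 0.000574), the highest of the complex. Uqcrq, a small subunit, rose from 15.81 ± 0.01 to 16.36 ± 0.07 (limma adjusted p = 0.00149). Cyc1, the cytochrome c1 heme protein, rose from 14.48 ± 0.06 to 14.95 ± 0.10 (limma adjusted p = 0.0045). The Rieske iron-sulfur protein Uqcrfs1 rose by 0.37, Uqcrc1 by 0.32 and Uqcr10 by 0.29, while Uqcrb, Uqcr11 and Uqcrh were not called, at 0.22, 0.07 and -0.07. Cytochrome c itself, Cycs, stood at 15.39 ± 0.11 against 15.58 ± 0.04 without overlap, and its limma adjusted p was 0.0964. A dimmer second probe of Cycs was called higher, at 0.29.

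In complex IV 6 genes (37.5%) were higher and 1 (6.25%) was lower, beside 23% and 28.5% of all genes, and 9 were not called. With 75th percentile scaling 4 (25%) were higher and 1 lower, beside 20% and 31.86% of all genes. The largest differences were in isoforms. Several of its subunits exist as a form found in most tissues and a form known from heart and skeletal muscle, testis, lung or hypoxic cells. Cox6a2, the heart and muscle form of subunit 6a (probe at chr7:135349160-135349219, mm9), read 9.79, 10.46 and 10.26 in the controls and 11.77, 12.25 and 12.09 on the Ctsk-Cre;Ano1fl/fl arrays. The lowest of the second group exceeded the highest control by more than 1 log2 unit, and the difference was 1.86 ± 0.20, or 3.64-fold (limma adjusted p = 0.000641). The common form Cox6a1 read 17.56 ± 0.05 against 17.70 ± 0.02 and was not called (limma adjusted p = 0.154). Cox7a1, the heart and muscle form of subunit 7a (chr7:30970337-30970948, mm9), read 10.10, 10.11 and 10.07 in the controls and 11.09, 11.31 and 11.26 on the Ctsk-Cre;Ano1fl/fl arrays. It rose 2.18-fold, by 1.13 ± 0.08 (limma adjusted p = 0.000153). Its common partner Cox7a2 differed by 0.06 ± 0.08 and Cox7a2l, which is involved in joining complexes III and IV, by 0.12 ± 0.09, and neither was called. These 2 rises were above 2-fold with 75th percentile scaling too, at log2 differences of 1.80 and 1.08.

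Ndufa4l2, a relative of Ndufa4 known as a hypoxia-responsive gene, did not clear background on any control array and did so on all 3 Ctsk-Cre;Ano1fl/fl arrays, through which alone it entered the test, so that the filter itself favoured a difference. Its probe (chr10:126954149-126954208, mm9) read 2.54, 3.41 and 2.54 in the controls and 6.73, 5.43 and 5.30 on the Ctsk-Cre;Ano1fl/fl arrays. Set against the weakest signal that still cleared the background of the control arrays, it was at least 3.61-fold higher (limma adjusted p = 0.00193). With normexp background correction, which adds an offset to dim signals, the log2 difference was 0.82 in place of 2.99, and with the deposited value table it was 1.22, so the bound holds for the processed signal alone. Another probe for it stayed near background on all 6 arrays, at processed signals of 3.05 to 3.69. Ndufa4 read 14.15 ± 0.05 against 14.27 ± 0.07 (limma adjusted p = 0.217).

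Cox6b2, the testis form of subunit 6b, went the other way. It read 7.70, 7.62 and 7.61 in the controls and 7.13, 6.94 and 7.02 on the Ctsk-Cre;Ano1fl/fl arrays, a difference of -0.62 ± 0.08 (limma adjusted p = 0.00144), while Cox6b1 stood at 12.63 in both groups. Its adjusted p was 0.00087 to 0.00813 without any single array and over the other scalings, filters and tests, and the fall was under 2-fold. Cox4i1 rose by 0.32 ± 0.07 (limma adjusted p = 0.0103, and 0.085 with 75th percentile scaling), and Cox4i2, the lung and hypoxia form, differed by -0.03 ± 0.10. Cox5a, a subunit on the matrix side, rose by 0.40. Cox8a rose by 0.22 ± 0.08 at a limma adjusted p of 0.0498 that became 0.347 with 75th percentile scaling. Its call was also lost without Ano1fl/fl replicate 2 or 3, or any one of the Ctsk-Cre;Ano1fl/fl arrays, at 0.0811 to 0.135. Cox7b, at 0.10, was not called, and Cox6c and Cox7c, at 0.22 and 0.04, were not either. The testis and muscle forms Cox7b2, Cox8b and Cox8c were not well above background on any array and were not tested.

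The change of an isoform relative to its partner was also taken within each array, as the log2 ratio minus its control mean. For Cox6a2 over Cox6a1 this gave -0.33, 0.29 and 0.05 in the controls and 1.46, 1.96 and 1.76 on the Ctsk-Cre;Ano1fl/fl arrays, a difference of 1.73. For Cox7a1 over Cox7a2 the difference was 1.07, for Cox4i2 over Cox4i1 -0.35 and for Cox6b2 over Cox6b1 -0.61. For each of these 4 pairs a two-sided exact permutation test gave p = 0.1, the smallest value that 3 against 3 arrays allow, so no pair can pass a threshold of 0.05 by it. No ratio is given for Ndufa4l2, whose control signal is only a bound.

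Striated muscle markers were read beside the muscle isoforms, and their part in the result was not tested. Of 8 such genes, 4 were not well above background on any array, and of the 4 tested only Myh6, a cardiac myosin heavy chain, was called. Its probe failed to clear background in the controls, at 3.36 to 3.62, and read 4.73, 5.90 and 5.44 on the Ctsk-Cre;Ano1fl/fl arrays, through which alone it entered the test. Set against the control arrays' lowest signals above background, as for Ndufa4l2, it was at least 2.62-fold higher (limma adjusted p = 0.00257, and 0.0137 with no filter on dim probes). The log2 difference was 0.51 with normexp background correction and 0.76 with the deposited value table, so this bound too holds for the processed signal alone. The summed signal of the list after quantile normalization was 180.3 to 205.6 in the controls and 180.1 to 226.8 on the Ctsk-Cre;Ano1fl/fl arrays.

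**Figure D3:**
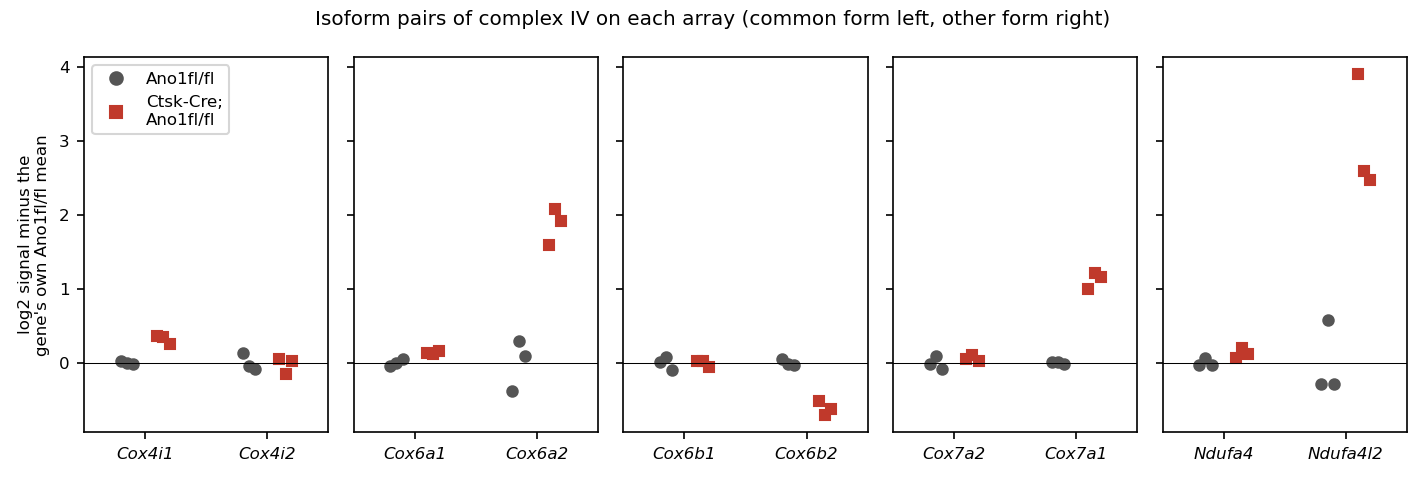
Log2 signal on each array minus the gene's own Ano1fl/fl mean for 5 isoform pairs of complex IV, the common form on the left and the other form on the right of each panel; circles are Ano1fl/fl and squares Ctsk-Cre;Ano1fl/fl arrays. Cox6a2, Cox7a1 and Ndufa4l2 lie above all their controls by about 1 log2 unit or more, Cox6b2 lies below, and the common forms stay within 0.4 of the control mean. The control values of Ndufa4l2 are below background. Levels of different genes are not comparable.

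Complex V is the ATP synthase. Only 2 of its 15 genes (13.3%) were higher and 1 (6.67%) was lower, beside 23% and 28.5% of all genes. With 75th percentile scaling 2 were higher and 2 lower, beside 20% and 31.86% of all genes. The genes higher with quantile normalization encode the α and β subunits of the catalytic head. Atp5a1 (α) read 15.72, 15.77 and 15.74 in the controls and 16.30, 16.33 and 16.34 on the Ctsk-Cre;Ano1fl/fl arrays. The difference was 0.58 ± 0.07 (limma adjusted p = 0.000809). Atp5b (β) rose by 0.41 ± 0.07 (limma adjusted p = 0.00479), and its 2 further probes gave 0.81 and 0.83. The head subunits γ, δ and ε, encoded by Atp5c1, Atp5d and Atp5e, gave 0.19, 0.18 and -0.07 and were not called. Atp5g1, Atp5g2 and Atp5g3 encode the same mature c-ring protein, and gave 0.05 ± 0.07, -0.18 ± 0.07 and 0.23 ± 0.09. None of these 3 passed the test (limma adjusted p of 0.613, 0.067 and 0.0587), but their calls varied with the setting. With 75th percentile scaling Atp5g2 was lower (-0.27, limma adjusted p = 0.0308) and Atp5g1 turned to -0.04. With normexp background correction Atp5g2 was lower (-0.17, limma adjusted p = 0.041) and Atp5g3 higher (0.24, limma adjusted p = 0.0294), while the mean of its probes put Atp5g3 at -0.04. Atp5k, the e subunit involved in dimer formation, read 15.22, 15.29 and 15.24 in the controls and 14.98, 15.02 and 14.98 on the Ctsk-Cre;Ano1fl/fl arrays. It fell by 0.26 on the log2 scale (limma adjusted p = 0.0193), and its second probe gave -0.28. The call was lost without Ano1fl/fl replicate 2 or 3 or Ctsk-Cre;Ano1fl/fl replicate 3, at adjusted p of 0.0517 to 0.0713. Of the 3 names that are no subunit, Atp5c1-ps was higher by 0.27, Atp5sl lower at -0.43 and Atp5s, at 0.20, not called.

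Different probes of a gene did not always give the same answer. Over probes, 47 of 122 subunit probes were higher, where 21.8% of the 31848 probes tested were, and 14 were lower, where 30.6% of all probes were. With 75th percentile scaling 27 of the subunit probes were higher, and 20% of all genes were higher by their brightest probe. Without Ano1fl/fl replicate 2 or 3 or Ctsk-Cre;Ano1fl/fl replicate 1 or 3, 7 to 9 subunit probes were lower. In those fits 23.09% to 25.16% of all genes were lower by their brightest probe. For 31 genes at least 2 probes were tested. Further probes with a mean log2 signal over 10, 26 in number, had a median log2 difference of 0.18 with 12 higher and 2 lower. Among the 15 dimmer further probes 2 were higher and 7 lower, and their median was -0.32. For 3 genes, Ndufa10, Ndufs1 and Sdha, probes passed the test in both directions.

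In Sdha, the brightest probe and one at chr13:74465756-74465815 gave 0.36 and 0.60, while a dimmer probe at chr13:74486662-74486720 (mm9) gave -1.06. That probe, assigned through a cDNA clone, read 8.41, 8.22 and 8.42 in the controls and 7.31, 7.35 and 7.21 on the Ctsk-Cre;Ano1fl/fl arrays. In Ndufs1 a second probe near 6 on the log2 scale gave -0.93 against 0.50 for the brightest, and in Ndufa10 a dim probe gave -0.53 against 0.47 and 0.59. The probes of Sdhb, Cyc1, Atp5a1 and Atp5b rose together.

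**Figure D4:**
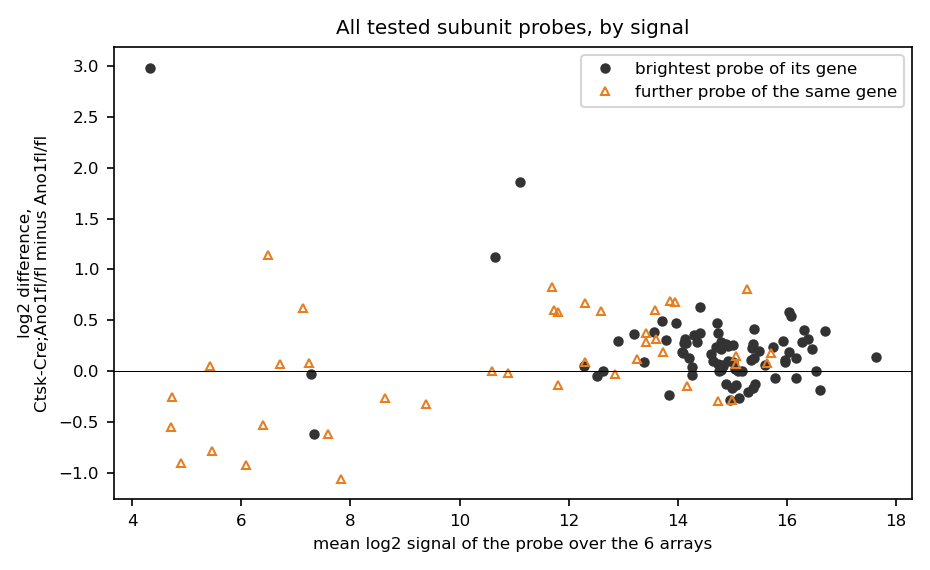
Log2 difference of each of the 122 tested subunit probes against its mean log2 signal over the 6 arrays; filled circles are the brightest probe of a gene and open triangles its further probes. Further probes at 10 or under on the signal axis lie mostly below 0 (median -0.32), and those above 10 mostly above it (median 0.18).

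Subunits encoded in the mitochondrial DNA were read as well. Probes for 11 of them were tested, of which the array's annotation placed 10 on the mitochondrial genome and the ND3 probe on chromosome 1. All 11 differences were positive and 7 were called higher, beside 23% of all genes, with a median of 0.30. The number called was 2 (18.2%) with 75th percentile scaling, where 20% of all genes were higher. It was 3 without Ano1fl/fl replicate 1 or 3 or Ctsk-Cre;Ano1fl/fl replicate 2, and 4 without Ano1fl/fl replicate 2. In those fits 19.32% to 20.48% of all genes were higher. ND5, a proton-pumping subunit of complex I, read 13.44, 13.61 and 13.40 in the controls and 13.90, 13.95 and 13.90 on the Ctsk-Cre;Ano1fl/fl arrays, a difference of 0.43 ± 0.08 (limma adjusted p = 0.00642). ND4, of the same proton-pumping arm, rose by 0.43 ± 0.10 (limma adjusted p = 0.0139). CYTB of complex III rose by 0.35 and COX1 of complex IV by 0.29. Of 8 carriers and porins tested, 5 were called higher, beside 23% of all genes. The list holds genes that move ADP, ATP and phosphate across the mitochondrial membranes, and uncoupling proteins. The uncoupling protein genes Ucp2 and Ucp3 differed downward without a call, at -0.22 and -0.05. The number called higher was 2 with 75th percentile scaling, where 20% of all genes were. It was 3 without Ano1fl/fl replicate 3, where 19.32% of all genes were. The adenine nucleotide translocators Slc25a4 and Slc25a5 rose by 0.50 ± 0.10 and 0.42 ± 0.08 (limma adjusted p of 0.00634 and 0.00557), and the porins Vdac1, Vdac2 and Vdac3 by 0.28 to 0.34.

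Assembly factors, which help build the complexes without being part of them, were called in both directions, as genes in general were. Of 50 tested, 9 were higher and 13 lower, beside 23% and 28.5% of all genes, with a median of -0.02. The number lower was 7 without Ano1fl/fl replicate 2 and 8 without Ctsk-Cre;Ano1fl/fl replicate 1, beside 23.09% and 25.16% of all genes. Sdhaf1, which supports the iron-sulfur maturation of complex II, rose from 11.76 ± 0.11 to 12.55 ± 0.14 (limma adjusted p = 0.00133). Tmem70, an assembly factor of complex V, rose from 11.84 ± 0.02 to 12.53 ± 0.03 (limma adjusted p = 0.000425), and Timmdc1 of complex I rose by 0.68. Atpif1, the inhibitor of ATP hydrolysis by complex V, read 16.44, 16.55 and 16.53 in the controls and 15.75, 15.81 and 15.70 on the Ctsk-Cre;Ano1fl/fl arrays. This was the largest fall of the list, at -0.75 ± 0.08 (limma adjusted p = 0.000466). Nubpl, which delivers iron-sulfur clusters to complex I, differed by -0.62 and Acad9, another complex I factor, by -0.44, while Ndufaf4 rose by 0.26. For complex III, Ttc19 and Uqcc1 rose by 0.66 and 0.30, and Uqcc3 and Bcs1l differed by -0.46 and -0.37. For complex IV, the copper chaperone Sco2 and the heme A synthesis enzyme Cox10 rose by 0.63 and 0.43, and Pet117 and Pet100 differed by -0.61 and -0.54.

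Among regulators of mitochondrial biogenesis 14 genes were tested, 2 were higher and 3 lower, beside 23% and 28.5% of all genes. With tested probes averaged per gene 1 was higher and 5 lower, beside 22.1% and 30.5%, and with the intensity trend 4 were higher, beside 25.05%. The number lower was 1 without Ano1fl/fl replicate 2 or 3 or Ctsk-Cre;Ano1fl/fl replicate 2, beside 23.09% to 24.55% of all genes. Ppargc1b, the coactivator PGC-1β that drives mitochondrial gene programs in osteoclasts, read 10.49, 10.23 and 10.41 in the controls and 11.46, 11.70 and 11.32 on the Ctsk-Cre;Ano1fl/fl arrays. The rise of 1.12 ± 0.13 (limma adjusted p = 0.000714) was larger than that of any subunit outside complex IV by its brightest probe. Esrra, the nuclear receptor ERRα, rose by 0.41 ± 0.08 (limma adjusted p = 0.00577), but by 0.14 (limma adjusted p = 0.173) as the mean of its probes. The transcription factor Nrf1 fell by 0.35 (limma adjusted p = 0.00563), the mitochondrial rRNA methyltransferase Tfb1m fell by 0.48 and Sirt1, a deacetylase, fell by 0.26. The related coactivator gene Ppargc1a did not pass the filter on dim probes and was not tested.

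**Figure D5:**
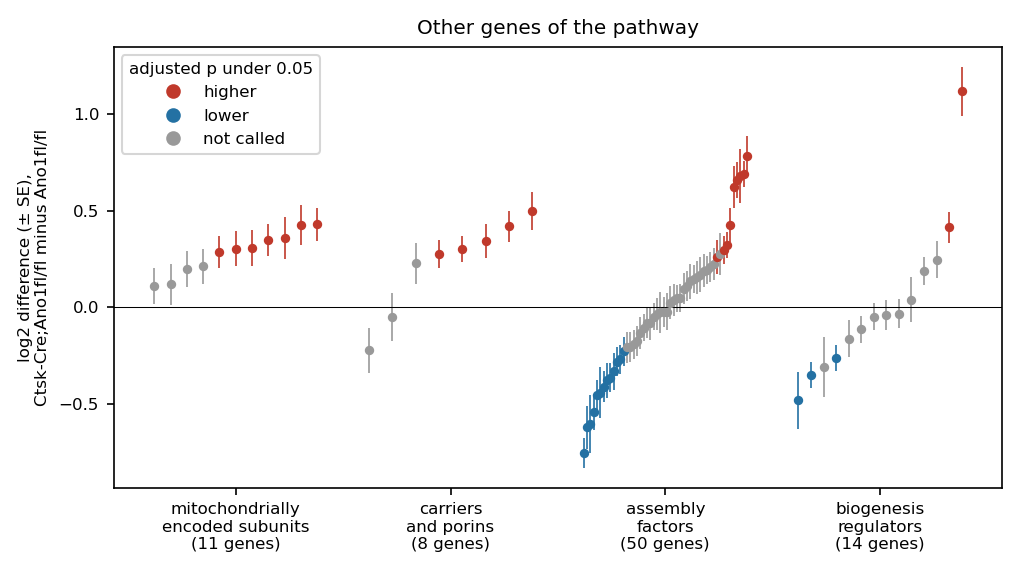
Log2 differences (Ctsk-Cre;Ano1fl/fl minus Ano1fl/fl) with limma standard errors for the tested genes of 4 other lists, each ordered from lowest to highest; red marks higher, blue lower and grey not called at an adjusted p under 0.05. All 11 mitochondrially encoded subunits lie above 0, while assembly factors (9 higher, 13 lower) spread to both sides.

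The promoters of the subunit genes were read for the letters of 4 motifs, on both strands, in the 250 bases before the start site (RefSeq, GRCm38.p6), a window held for 68 of the 84 genes. The nuclear respiratory factor 1 motif, GCGC, any base and then TGCGC, occurred in 13 of the 68 (19.1%) and in 4.23% of the promoters of all 27025 genes. It was found in 3 of 22 higher genes, 2 of 5 lower genes and 8 of 39 genes not called, and the other 2 genes were not tested. The ERR motif TCAAGGTCA occurred in 1 subunit promoter, that of Atp5g3 (0.422% of all genes), the GABP motif CCGGAAGTG in that of Uqcrh (1.6% of all genes) and the hypoxia element TACGTG in that of Uqcr11 (3.12% of all genes). A match is a description of letters and not a binding site.

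The promoters of 4 genes are shown 5′ to 3′ on the gene's strand with nuclear respiratory factor 1 matches in capitals: Sdha (chr13:74350241-74350490, minus strand) and Ndufb4 (chr16:37654369-37654618, minus strand), each with 3 matches and higher, Atp5k (chr5:108434400-108434649, minus strand), with 1 match and lower, and Cox7a1 (chr7:30183921-30184170, plus strand), the muscle isoform, in which none of the 4 motifs occurs.
Sdha: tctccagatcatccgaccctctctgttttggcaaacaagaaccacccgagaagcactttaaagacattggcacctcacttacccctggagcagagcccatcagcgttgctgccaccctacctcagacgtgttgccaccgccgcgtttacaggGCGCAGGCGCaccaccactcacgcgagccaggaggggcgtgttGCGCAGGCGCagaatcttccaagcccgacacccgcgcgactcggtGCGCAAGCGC
Ndufb4: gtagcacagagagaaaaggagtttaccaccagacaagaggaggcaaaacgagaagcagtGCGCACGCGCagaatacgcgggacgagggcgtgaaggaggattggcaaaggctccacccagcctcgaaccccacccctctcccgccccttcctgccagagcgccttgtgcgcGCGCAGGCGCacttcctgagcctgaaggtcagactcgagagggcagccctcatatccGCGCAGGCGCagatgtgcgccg
Atp5k: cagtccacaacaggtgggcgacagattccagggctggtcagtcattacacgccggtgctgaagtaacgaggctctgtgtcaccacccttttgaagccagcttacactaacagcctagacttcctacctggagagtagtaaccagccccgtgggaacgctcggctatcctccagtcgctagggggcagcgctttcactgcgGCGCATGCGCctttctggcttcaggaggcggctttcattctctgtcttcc
Cox7a1: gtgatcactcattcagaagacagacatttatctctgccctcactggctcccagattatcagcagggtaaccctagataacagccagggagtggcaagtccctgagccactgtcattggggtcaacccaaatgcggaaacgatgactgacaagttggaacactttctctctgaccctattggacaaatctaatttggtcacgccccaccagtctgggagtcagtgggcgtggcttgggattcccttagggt
The matches of Sdha end 89, 46 and 1 bases before the start, and that of Atp5k ends 41 bases before it. Sdha and Ndufb4, which hold 3 matches each, differed by 0.36 and 0.25 on the log2 scale, and Cox7a1, which holds none, by 1.13.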

How the data were processed

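RNA of 6 mice was measured on 6 arrays. The authors deposited the scanner intensities of every spot as read by Agilent Feature Extraction 10.7.1.1 (per the labels), not normalized between arrays, and a value table of intensities equal to the spot medians. The processed signal, from which that software had removed background and spatial trends, was put on the log2 scale, quantile normalized (the algorithm the methods name) and averaged for each probe with limma 3.58.1 in R 4.3.3 (files read by data.table, version 1.17.8). Control spots were dropped, as were 14 probes that lacked a value on an array. Quantile normalization sets all arrays to 1 distribution, so a difference is relative to the other genes of an array. A probe was tested if at least 0.5 of its spots cleared background on every array of either group, which left 31848 in all, 126 of them among the 135 member probes. Groups were compared with lmFit and eBayes, p adjusted by Benjamini-Hochberg over all of these, and a gene was called by its brightest probe at 0.05. The procedure was tested on simulated data.

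The members and lists were chosen with earlier results of these data known. Genes named are, in each complex, the 3 with the largest rise and fall among those called without overlap, every isoform with its partner, all Sdh genes, Cyc1 and Cycs, members with probes called in opposite directions, and the 2 with the largest rise and fall in each other list. Further genes are named after their values were seen. Of further marker lists, 3 of 5 osteoblast genes (1 higher, 1 lower), 2 of 6 adipocyte genes (1 higher, 0 lower) and 1 of 5 erythroid genes (0 higher, 1 lower) were tested. The value of 1 member gene is not reported here, though counts and medians include it. Probe positions are those of the array files (mm9). Python 3.11.15 with pandas 2.3.3 and matplotlib 3.10.9 read promoters and drew plots. Alternatives were 75th percentile scaling, normexp with an offset of 50, the deposited value table, other filters and probe rules, the methods' t-test, other moderation, folds of 1.5 and 2, a replicate block and leaving out each array.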

Additional observations from a re-analysis of the deposited data

How the results depend on the processing

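With 75th percentile scaling 16 member genes and 27 probes were higher, beside 20% of all genes. The medians were 0.0643 over all subunits, 0.0414 (complex I), 0.272 (II), 0.218 (III), 0.0646 (IV) and -0.0235 (V, reversed). With the mean of all tested probes the medians were 0.102 over all subunits, 0.0605 (I), 0.245 (II) and 0.0334 (V), and Sdha (-0.0134) and Ndufs1 (-0.22) reversed. At a fold over 1.5 as well, 4 genes and 14 probes were higher and 1 gene and 6 probes lower. At a fold over 2, 3 genes and 4 probes were higher and 0 genes and 1 probe lower, by the same limma test that called 5 genes lower. The methods' t-test gave 9 lower genes, both with Benjamini-Hochberg adjustment and at an unadjusted p, and 43 and 45 higher ones. With the adjustment 25.32% of all genes were lower and 21.3% higher. The intensity trend with robust moderation gave 43 higher and 9 lower, beside 25.05% and 30.14% of all genes. Leaving out each array in turn gave 21 to 29 higher genes, 1 to 3 lower genes, 33 to 42 higher probes and 7 to 12 lower probes, and a complex I median of 0.12 to 0.16. Of all genes 19.32% to 20.69% were then higher and 23.09% to 25.16% lower. The mitochondrially encoded subunits had 3 to 5 higher calls, the assembly factors 7 to 11 lower, the biogenesis regulators 1 to 3 lower and the carriers 3 to 6 higher and 0 to 1 lower. In each of those fits 1 group had fewer arrays. The subunit median minus that of all genes stayed positive in every setting, between 0.16 and 0.24. Of these other lists, 2 mitochondrially encoded subunits and 2 carriers were higher with 75th percentile scaling, 1 carrier was lower with no filter on dim probes, 1 regulator was higher and 5 lower with the mean of all probes, and 4 were higher with the intensity trend. The cause was not tested.

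The labels give both groups the same replicate numbers. Same-numbered arrays did not deviate together (r of -0.02, -0.08 and -0.09). Low correlations cannot exclude a shared litter or culture, and the main fit treats the mice as unpaired. A fit with a replicate block called 20 genes higher and 1 lower, beside 19.94% and 23.7% of all genes. It called 33 probes higher and 8 lower, with 4 mitochondrially encoded subunits higher and 8 assembly factors lower. Dim probes limit the isoforms Cox7b2, Cox8b and Cox8c and the fold of Ndufa4l2.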
